A study of Homo sapiens with 12 samples.

Results

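The SR proteins are splicing factors that carry a domain rich in arginine and serine. The 10 genes described here are SRSF1, SRSF2, SRSF3, SRSF4, SRSF5, SRSF6, SRSF7, SRSF11 and the related factors TRA2A and TRA2B. They were taken from the files by symbol, as a family chosen with earlier results of these data known, and they are 10 of 26334 genes in the count files. Their skipped exon events numbered 52 of 68403 for Cisplatin in control cells, 68 of 71063 for Cisplatin in RNF113A-depleted cells, 51 of 68784 for depletion in untreated cells and 66 of 69112 for depletion in Cisplatin-treated cells. In the same order of comparisons, 9 of 4111, 10 of 4116, 9 of 4059 and 10 of 4153 retained intron events belonged to them. Over the 4 comparisons these were 84 skipped exon events of 54 distinct exons in all 10 genes, and 10 introns in SRSF1, SRSF5, SRSF7 and TRA2A. The mRNA came from A549, an established line of human lung adenocarcinoma cells, and was sequenced in 12 libraries. The cells carried, through lentivirus and selection with puromycin, a control shRNA (shControl, "control cells") or an shRNA against the spliceosomal E3 ligase RNF113A (shRNF113A, "depleted cells"). Both were left untreated or treated with Cisplatin, a platinum drug that crosslinks DNA, at 25 µg/ml for 20 h per the labels, with 3 biological replicates in each of the 4 conditions. The study describes Cisplatin doses of other experiments in µM, so the unit of this dose is uncertain. All 12 libraries therefore share the infection and the selection, and which shRNA sequence was used is not given in the sources used here.

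SR proteins bind short sequences in exons and help the spliceosome recognise the neighbouring splice sites. Many of their own genes hold a so-called poison exon. When that exon is skipped the mRNA encodes the full protein, and when it is included the reading frame meets an early stop codon, and such transcripts are known targets of nonsense-mediated decay. SR proteins are known to promote the inclusion of poison exons in their own and each other's transcripts, which limits their levels. SRSF1 and SRSF2 are known to act on introns near the end of their own transcripts in a similar way.

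Libraries held 33859097 to 56071514 read pairs, of which 26220526 to 45721152 were counted on the strand of a gene. The epithelial keratins KRT8 and KRT18 lay between 1479 and 7299 CPM (counts scaled to 1000000 counted reads) in all 12 libraries, and the leukocyte gene PTPRC between 0 and 0.128. EPCAM, also an epithelial gene, varied widely, between 3.68 and 94.3 CPM. RNF113A was lower in untreated depleted than in untreated control cells (log2 fold change −0.31 ± 0.092, adjusted p = 0.0247), with no overlap between libraries. With Cisplatin the difference was −0.14 ± 0.091 (adjusted p = 0.233), and the libraries overlapped. Replicate 2 of the control cells stood apart in both conditions. Its chi-square per gene against the other replicates of its condition was 69.0 to 105, while all other replicate comparisons gave 4.27 to 19.4. Gene counts and intronic reads were also fitted without these libraries, and changed calls of gene counts are stated. Splicing events could not be fitted that way, because their libraries are not named. Errors of log2 changes are standard errors, and p-values are adjusted by Benjamini-Hochberg over all features tested. A change was called at an adjusted p under 0.05.

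The poison exons of 7 members are shown first because the splicing results turn on them. Each line gives an exon of the GRCh37 genome, from its 5′ end to 12 bases past the stop codon that comes first in frame when the exon is joined to the coding exon before it. The stop codon is in capitals.
SRSF3 456-nt exon, first 46 bases (chr6:36567598-36567643, plus strand): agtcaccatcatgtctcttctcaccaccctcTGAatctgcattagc
SRSF4 195-nt exon, first 53 bases (chr1:29486518-29486570, minus strand): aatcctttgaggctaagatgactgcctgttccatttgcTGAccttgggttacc
SRSF6 268-nt exon, first 164 bases (chr20:42087793-42087956, plus strand): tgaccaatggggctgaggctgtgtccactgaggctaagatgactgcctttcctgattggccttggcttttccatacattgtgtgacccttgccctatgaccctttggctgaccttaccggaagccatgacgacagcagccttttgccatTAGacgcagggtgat
SRSF7 276-nt exon, first 34 bases (chr2:38976282-38976315, minus strand): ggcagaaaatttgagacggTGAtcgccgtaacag
SRSF7 449-nt exon, first 40 bases (chr2:38976449-38976488, minus strand): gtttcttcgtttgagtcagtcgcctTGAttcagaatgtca
SRSF11 117-nt exon, first 62 bases (chr1:70697542-70697603, plus strand): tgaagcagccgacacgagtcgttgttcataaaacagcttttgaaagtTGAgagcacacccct
TRA2A 312-nt exon, first 156 bases (chr7:23561896-23562051, minus strand): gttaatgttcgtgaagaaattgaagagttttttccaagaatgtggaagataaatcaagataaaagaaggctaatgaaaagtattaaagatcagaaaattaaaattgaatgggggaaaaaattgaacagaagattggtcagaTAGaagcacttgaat
TRA2B 276-nt exon, first 93 bases (chr3:185649548-185649640, minus strand): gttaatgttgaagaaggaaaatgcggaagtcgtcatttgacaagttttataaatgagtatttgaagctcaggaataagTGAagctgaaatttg
The stop codon began between position 20 (276-nt exon of SRSF7) and position 150 (SRSF6) of the exon, and 67 to 422 bases of the exon followed it. None of these exons held a base of the coding sequence of an annotated protein-coding transcript. The 312-nt TRA2A exon is annotated only in 1 transcript without a defined coding sequence. A 301-nt form from the same first base is in 1 transcript of nonsense-mediated decay and 1 protein-coding transcript, again with no coding base. Both SRSF7 exons end at the same splice site. The exons of SRSF4 and SRSF6 shared a run of 20 bases, tgaggctaagatgactgcct, which lies upstream of the stop codon in both. The exons of TRA2A and TRA2B shared a run of 12, gaagaatgaaga. That run holds GAAGAA, a sequence that TRA2 proteins are known to bind, which on the strand of the gene occurred 4 times in the TRA2A exon, 3 times in the TRA2B exon, once in each SRSF7 exon and not in the others. Among all skipped exons within 10% of the same length, 21.7% held GAAGAA at the length of the TRA2A exon and 17.8% at that of the TRA2B exon. The GC content was 29.8% in the TRA2A exon and 32.6% in the TRA2B exon, against medians of 54.0% and 53.8% among exons of like length.

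**Figure D1:**
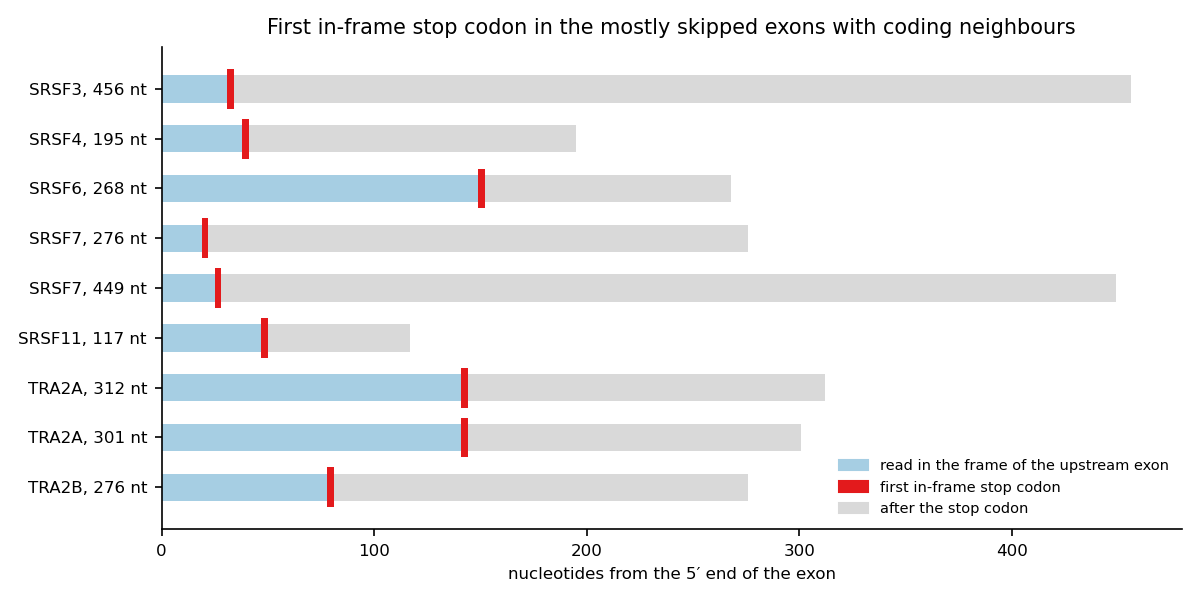
Bars show 9 of the mostly skipped exons, the poison exons above and the 301-nt form of TRA2A, along bases from the 5′ end, with the position of the first stop codon in frame counted from the first base of the exon. The stop codon lies between position 20 and position 150, and each exon runs on for 67 to 422 bases after it.

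All 10 genes were transcribed in every library. Levels are exonic reads per kb of exon and per 1000000 exonic reads, so that they can be compared between genes. In untreated control cells SRSF2 (125 ± 6.62, SD, n = 3) and SRSF1 (123 ± 8.10) had the highest levels, and their libraries overlapped. SRSF3 (104 ± 6.02) came next, followed by SRSF7 (89.5 ± 5.80) and TRA2B (81.8 ± 5.07), which overlapped with each other. SRSF6 (52.9 ± 1.02) lay above SRSF5 (42.4 ± 1.82) and TRA2A (38.8 ± 2.07), and the latter overlapped. The lowest levels were those of SRSF4 (25.0 ± 5.83) and SRSF11 (22.4 ± 1.00), whose libraries also overlapped. The order of levels differed after Cisplatin. In Cisplatin-treated control cells SRSF1 (80.1 ± 3.91), SRSF3 (69.8 ± 0.408) and SRSF7 (65.1 ± 1.37) were highest, and SRSF2 (60.5 ± 5.24) came after them, with libraries that overlapped with those of SRSF7. In Cisplatin-treated depleted cells SRSF2 (89.9 ± 3.00) was again highest, SRSF6 (70.3 ± 3.42) came directly after SRSF1 (77.1 ± 5.71), and SRSF3 (50.9 ± 4.89) had a lower mean than SRSF5 (55.9 ± 0.607), and the libraries of both pairs overlapped.

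**Figure D2:**
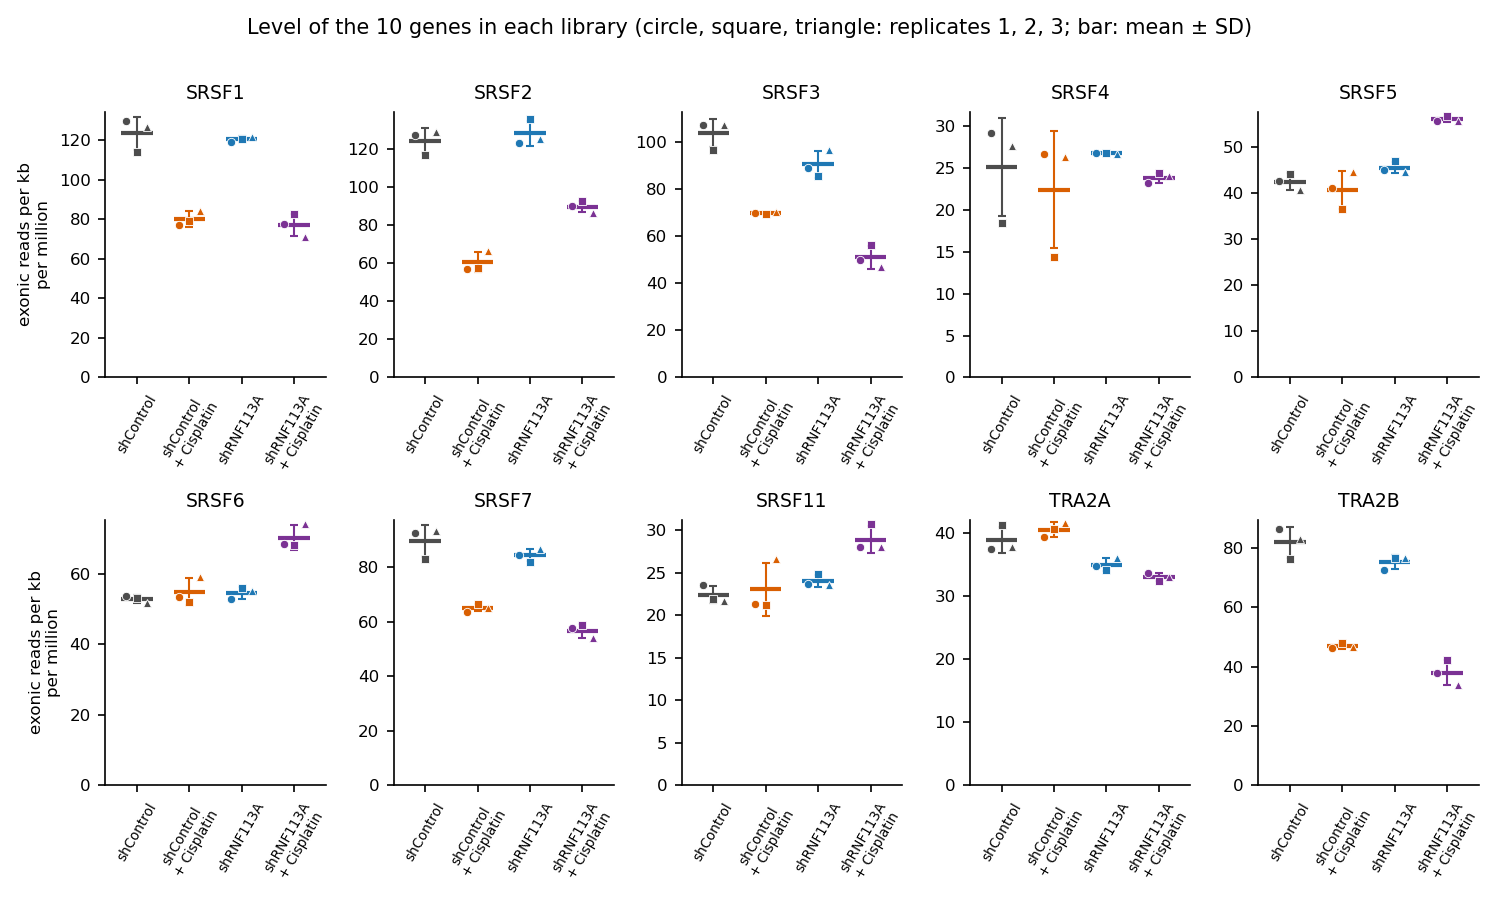
Level of each of the 10 genes in each of the 12 libraries, in exonic reads per kb of exon and per 1000000 exonic reads, by condition. Points are libraries, and bars are means ± SD of 3 libraries. SRSF2 lies between 117 and 129 in untreated control cells and between 57.3 and 66.6 with Cisplatin, and SRSF4 is low in replicate 2 of the control cells.

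Cisplatin lowered 5 of the 10 genes in control cells (SRSF1, SRSF2, SRSF3, SRSF7 and TRA2B) and raised none, where 27.0% of the 15352 genes tested were lower and 28.0% higher. In depleted cells the same 5 genes were lower, SRSF5 and SRSF6 were higher, and 27.8% of all genes were lower and 32.4% higher. Over all tested genes 55.0% were called in control cells and 60.2% in depleted cells. The median log2 fold change over the 10 genes was −0.37 in control cells and −0.38 in depleted cells, against −0.0053 and 0.06 over all genes tested. In these bulk samples a smaller number of cells that express a gene and less RNA per cell cannot be told apart.

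SRSF2, a factor of constitutive and alternative splicing, had levels of 127, 117 and 129 without and 57.3, 57.8 and 66.6 with Cisplatin in control cells, and 124, 136 and 126 without and 90.4, 92.6 and 86.7 with Cisplatin in depleted cells. Cisplatin-treated libraries were below untreated ones in both cell types, and with Cisplatin the depleted cells were above the control cells. The log2 fold change with Cisplatin was −1.15 ± 0.086 (adjusted p = 3.73e-07) in control cells, a 2.22-fold decrease, and −0.63 ± 0.085 (adjusted p = 4.63e-05) in depleted cells. TRA2B, which recognises exons rich in GAA, had levels of 86.3, 76.3 and 82.9 without and 46.2, 48.0 and 46.8 with Cisplatin in control cells, and 72.5, 76.5 and 76.7 without and 37.7, 42.2 and 33.9 with Cisplatin in depleted cells. The untreated and treated libraries did not overlap in either cell type. Its log2 fold change was −0.90 ± 0.086 (adjusted p = 2.91e-06) in control cells and −1.06 ± 0.087 (adjusted p = 6.88e-07) in depleted cells, the latter a 2.09-fold decrease. No other member passed a fold change of 2.

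SRSF1, the founding member of the family, had levels of 129.5, 114 and 126 without and 76.9, 78.9 and 84.4 with Cisplatin in control cells, and 119, 121 and 122 without and 77.8, 82.4 and 71.1 with Cisplatin in depleted cells. Cisplatin-treated libraries were lower in both cell types, and control and depleted cells overlapped in both conditions. The log2 fold change was −0.73 ± 0.080 (adjusted p = 9.97e-06) in control cells and −0.71 ± 0.080 (adjusted p = 1.05e-05) in depleted cells. SRSF3, the smallest member, which also acts in mRNA export, had levels of 107, 96.7 and 107 without and 69.6, 69.5 and 70.3 with Cisplatin in control cells, and 89.0, 85.6 and 96.4 without and 49.7, 56.3 and 46.8 with Cisplatin in depleted cells. The groups did not overlap, and Cisplatin-treated depleted cells were lowest. Its log2 fold change with Cisplatin was −0.56 ± 0.087 (adjusted p = 0.000159) in control cells and −0.86 ± 0.087 (adjusted p = 4.17e-06) in depleted cells. SRSF7, a close relative of SRSF3, had levels of 92.5, 82.8 and 93.2 without and 63.7, 66.4 and 65.1 with Cisplatin in control cells, and 84.5, 81.9 and 86.5 without and 57.7, 58.6 and 53.8 with Cisplatin in depleted cells. All Cisplatin-treated libraries were below all untreated ones, with log2 fold changes of −0.49 ± 0.077 (adjusted p = 0.000163) in control cells and −0.52 ± 0.077 (adjusted p = 9.54e-05) in depleted cells.

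SRSF6, a classical SR protein, had levels of 53.7, 53.2 and 51.7 without and 53.5, 52.1 and 59.3 with Cisplatin in control cells, and 52.8, 55.9 and 55.1 without and 68.4, 68.3 and 74.3 with Cisplatin in depleted cells. The Cisplatin-treated depleted cells lay above the other 9 libraries, which overlapped. The log2 fold change with Cisplatin was 0.0062 ± 0.076 (adjusted p = 0.951) in control cells and 0.36 ± 0.076 (adjusted p = 0.00129) in depleted cells. SRSF5, also a classical SR protein, had levels of 42.4, 44.2 and 40.5 without and 41.0, 36.4 and 44.5 with Cisplatin in control cells, and 44.9, 46.8 and 44.6 without and 55.5, 56.6 and 55.6 with Cisplatin in depleted cells. It too was highest in Cisplatin-treated depleted cells, with log2 fold changes of −0.15 ± 0.076 (adjusted p = 0.106) in control cells and 0.20 ± 0.076 (adjusted p = 0.041) in depleted cells. That call of SRSF5 was lost in 9 of the 12 fits with 1 library left out (log2 fold changes from 0.15 to 0.20 over the 12 fits). It was also lost with DESeq2 (0.15, adjusted p = 0.091), without a filter on low counts (0.19, adjusted p = 0.0888) and with unstranded counts (0.19, adjusted p = 0.053).

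SRSF4, SRSF11 and TRA2A passed no test of Cisplatin in either cell type. SRSF11, an SR-related factor, had levels of 23.6, 22.0 and 21.7 without and 21.3, 21.3 and 26.7 with Cisplatin in control cells, and 23.7, 24.9 and 23.6 without and 28.0, 30.7 and 28.0 with Cisplatin in depleted cells. TRA2A, the paralog of TRA2B, had levels of 37.5, 41.2 and 37.7 without and 39.3, 40.6 and 41.6 with Cisplatin in control cells, and 34.7, 34.2 and 36.1 without and 33.7, 32.3 and 33.0 with Cisplatin in depleted cells. The groups of TRA2A overlapped in control cells, and its Cisplatin-treated depleted libraries were below the untreated ones by a small margin (log2 fold change −0.066 ± 0.060, adjusted p = 0.36). SRSF4, a longer relative of SRSF6, had levels of 29.1, 18.4 and 27.6 without and 26.6, 14.3 and 26.2 with Cisplatin in control cells, and 26.8, 26.7 and 26.6 without and 23.1, 24.3 and 24.0 with Cisplatin in depleted cells. In depleted cells the Cisplatin-treated libraries of SRSF4 were below the untreated ones (log2 fold change −0.24 ± 0.22, adjusted p = 0.352). Replicate 2 of the control cells was far below the other libraries in both conditions. The groups of control cells therefore overlapped, and the log2 fold change of SRSF4 in control cells was −0.25 ± 0.22 (adjusted p = 0.349). Without both libraries of that replicate it was −0.21 (adjusted p = 0.017), and with the replicate number as a block in control cells alone it was −0.27 (adjusted p = 0.017), so both alternatives called SRSF4 lower.

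Depletion of RNF113A in untreated cells changed none of the 10 genes by edgeR's quasi-likelihood test, where 27.4% of the genes tested were called (12.8% higher and 14.6% lower). At an unadjusted p under 0.05, SRSF3 (log2 fold change −0.20 ± 0.087, adjusted p = 0.106) and TRA2A (−0.16 ± 0.060, adjusted p = 0.0616) were lower, and DESeq2 called 1 member. Without both libraries of replicate 2 of the control cells, SRSF3 (−0.28), TRA2B (−0.23) and SRSF7 (−0.16) were called lower. With all libraries TRA2B was at −0.15 ± 0.085 and SRSF7 at −0.077 ± 0.077, and neither was called. In Cisplatin-treated cells depletion changed 7 of the 10, against 42.9% of all genes (21.1% higher and 21.8% lower). SRSF2 (log2 fold change 0.53 ± 0.085, adjusted p = 0.000488), SRSF5 (0.45 ± 0.076, adjusted p = 0.000728), SRSF6 (0.44 ± 0.076, adjusted p = 0.000745) and SRSF11 (0.31 ± 0.091, adjusted p = 0.0156) were higher in depleted cells. SRSF3 (−0.50 ± 0.087, adjusted p = 0.000802), TRA2B (−0.31 ± 0.086, adjusted p = 0.0124) and TRA2A (−0.26 ± 0.060, adjusted p = 0.00472) were lower. The call of TRA2B was lost without Cisplatin-treated depleted replicate 3 (−0.25, adjusted p = 0.0586). The call of SRSF11 was lost without Cisplatin-treated control replicate 1 (0.22, adjusted p = 0.104) or 2 (0.20, adjusted p = 0.102), or without Cisplatin-treated depleted replicate 1 (0.29, adjusted p = 0.0513) or 2 (0.23, adjusted p = 0.0945). With all libraries, SRSF1, SRSF4 and SRSF7 passed no test of depletion in either condition. The log2 fold change of SRSF4 in Cisplatin-treated cells was 0.071 ± 0.22 (adjusted p = 0.813), and without both libraries of replicate 2 of the control cells it was called lower (−0.17, adjusted p = 0.0358).

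The additive model over all 12 libraries, which takes the effect of each factor as equal at both levels of the other, called 6 members for Cisplatin (66.8% of all genes) and 7 for depletion (47.5% of all genes). The difference between the Cisplatin effects in depleted and in control cells was tested by the interaction term, which called 4.25% of all genes and 1 member. This was SRSF2, at 0.52 ± 0.12 (adjusted p = 0.0322) (log2): Cisplatin lowered it less in depleted than in control cells. The call was kept in 2 of the 12 fits with 1 library left out, with sizes from 0.43 to 0.60, and lost without a filter on low counts (0.51, adjusted p = 0.0523). Interaction terms of SRSF6 (0.36 ± 0.11, adjusted p = 0.0817) and SRSF5 (0.35 ± 0.11, adjusted p = 0.0865) missed the threshold, and both passed without both libraries of replicate 2 of the control cells.

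Of the wider pathway, 30 other genes that encode SR or SR-related factors were tested as a list. Cisplatin raised 13 and lowered 4 of them in control cells (over all genes 28.0% rose and 27.0% fell), and raised 7 and lowered 6 in depleted cells (32.4% and 27.8%). Depletion raised 9 and lowered 2 in untreated cells (12.8% and 14.6%), and raised 9 and lowered 4 in Cisplatin-treated cells (21.1% and 21.8%). The median log2 fold changes over the list were 0.22, 0.054, 0.17 and 0.035 in these 4 comparisons, against −0.0053, 0.056, 0.0028 and −0.0069 over all genes. RSRC1, an SR-related factor of constitutive and alternative splicing, fell in both cell types. In control cells it had a log2 fold change of −2.29 ± 0.083 (adjusted p = 1.32e-09), and in depleted cells one of −3.06 ± 0.089 (adjusted p = 1.3e-09). SRRM2, which encodes a large protein of nuclear speckles, was higher upon depletion both in untreated cells (0.69 ± 0.19, adjusted p = 0.017) and in Cisplatin-treated cells (0.71 ± 0.19, adjusted p = 0.00953), and PNN, whose product belongs to the complexes that bind exon junctions, likewise (0.55 ± 0.13, adjusted p = 0.00777 and 0.79 ± 0.13, adjusted p = 0.000552). SRSF9 (−0.31) and SRSF10 (−0.29), further members of the SRSF family, were lower with Cisplatin in control cells, and SRSF8 (0.44) was higher.

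With Cisplatin, poison exons of 3 members had a higher inclusion level in control cells by the test (SRSF3, SRSF7 and TRA2A), and in depleted cells those of 6 members (SRSF3, SRSF4, SRSF6, SRSF7, TRA2A and TRA2B). Over all skipped exon events tested, 0.232% were called higher in control cells and 0.922% in depleted cells. SRSF7 counts here although its poison exons are described only because they passed a test. The exon of SRSF11 passed in neither. Of the members' exons that were described, 10 in 8 genes had a mean inclusion level under 50% in untreated control cells, and these are the poison exons above, a 301-nt form of the TRA2A exon and the 104-nt exon of SRSF2. Their means there lay between 1.68% (SRSF3) and 22.6% (SRSF6), and the next exon above them, the 36-nt exon of SRSF7, was at 82.7%. Both SRSF7 exons and the 301-nt form of TRA2A are described because they passed a test with at least 10 points between means, so they are left out of the counts that follow. Of the other 7 exons, chosen by their reads, the mean inclusion level was higher with Cisplatin for 7 of 7 in control cells, by 2.87 to 16.2 percentage points with a median of 9.15, and for 7 of 7 in depleted cells, by 4.49 to 21.0 points with a median of 8.40. Their choice used reads of the lesser form, here inclusion, summed over all 12 libraries, and a low level in untreated control cells. It can therefore favour exons that rise with Cisplatin, and no share among equally low exons of all genes was computed. The test called 3 of the 7 in control cells and 6 of the 7 in depleted cells, all higher. Upon depletion in untreated cells the mean was higher for 6 of 7, of which 1 was called. In Cisplatin-treated cells the mean of 5 of 7 was higher in depleted cells, of which 1 was called. The SRSF7 exons share their skipping reads, as do the TRA2A forms.

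Over all member events, Cisplatin in control cells raised 7 and lowered 2 of 48 skipped exon events tested, where 0.315% of 59022 events were called (0.232% higher and 0.083% lower). In depleted cells 12 rose and 4 fell of 67, where 1.82% of 60616 were called (0.922% higher and 0.894% lower). Depletion raised 1 of 48 in untreated cells (0.0939% called of all events, 0.0453% higher and 0.0486% lower) and raised 1 and lowered 1 of 64 in Cisplatin-treated cells (0.721% called, 0.181% higher and 0.54% lower). The median log2 change of the odds over all member events tested was 0.86 with Cisplatin in control cells, −0.29 with Cisplatin in depleted cells, 0.37 upon depletion in untreated cells and −0.46 upon depletion in Cisplatin-treated cells, against 0.13, −0.029, −0.17 and −0.36 over all events tested, so the median member event in depleted cells went in the other direction than the mostly skipped exons. Inclusion levels are length-normalised inclusion reads as a percentage of both forms, and tests compare inclusion with skipping reads and give a log2 change of their odds. The tables do not name their libraries, which are therefore called a, b and c. The number of calls depends on the tool. DESeq2 with the same design gave sizes that were nearly equal but called 1 member event for Cisplatin in control cells, the SRSF3 exon, 2 in depleted cells and 0 for depletion in either condition, and 12, 214, 0 and 84 events over all genes. The calls below are those of edgeR.

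**Figure D3:**
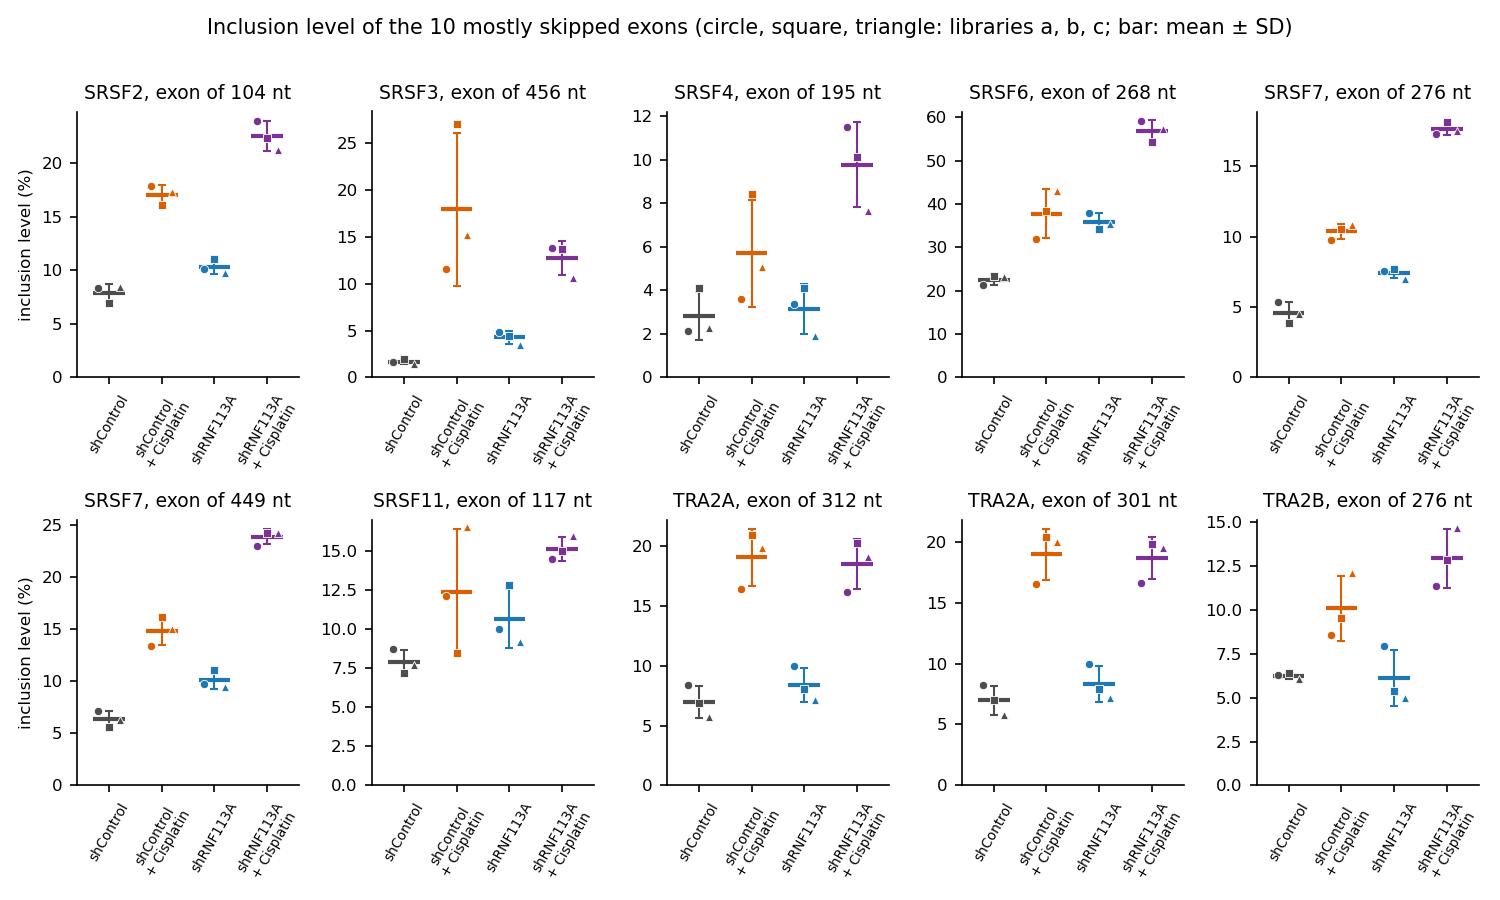
Inclusion level in percent of the 10 mostly skipped exons in each library, by condition. Points are libraries, and bars are means ± SD of 3 libraries. The SRSF3 exon lies between 1.41% and 1.97% in untreated control cells and between 11.5% and 27.0% with Cisplatin, and the SRSF6 exon is highest in Cisplatin-treated depleted cells at 54.2% to 59.2%.

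The 456-nt poison exon of SRSF3 (chr6:36567598-36568053, plus strand) changed most in control cells. Its inclusion levels in percent were 1.67, 1.97 and 1.41 without and 11.5, 27.0 and 15.2 with Cisplatin in control cells, and 4.86, 4.47 and 3.50 without and 13.8, 13.7 and 10.6 with Cisplatin in depleted cells. The groups of control cells did not overlap, and the spread with Cisplatin was wide, with library b highest. The log2 change of the odds with Cisplatin was 3.59 ± 0.29 (adjusted p = 3.46e-30) in control cells and 1.70 ± 0.23 (adjusted p = 2.59e-10) in depleted cells. Depletion raised it in untreated cells (1.38 ± 0.23, adjusted p = 4.93e-05), where it was the single member event called, and that call was lost without untreated depleted library a (1.28, adjusted p = 0.0913) or b (1.35, adjusted p = 0.0577). In Cisplatin-treated cells the effect of depletion was −0.50 ± 0.29 (adjusted p = 0.709). The interaction was called at −1.89 ± 0.34 (adjusted p = 0.000449): Cisplatin raised inclusion less in depleted than in control cells, and untreated depleted cells started from a higher level. It was called in all 12 fits with 1 library left out (−2.22 to −1.46), at −1.46 (adjusted p = 0.0359) without Cisplatin-treated control library b. The interaction was called for 0.0298% of the 36861 events tested, and for 1 of 37 member events.

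The 268-nt poison exon of SRSF6 (chr20:42087793-42088060, plus strand) was the most included of these exons. Its inclusion levels were 21.3, 23.4 and 23.1 without and 31.9, 38.4 and 43.1 with Cisplatin in control cells, and 38.0, 34.3 and 35.4 without and 59.2, 54.2 and 57.4 with Cisplatin in depleted cells. The conditions did not overlap, except that Cisplatin-treated control cells and untreated depleted cells covered the same range. The log2 change with Cisplatin was 1.05 ± 0.31 (adjusted p = 0.11) in control cells and 1.24 ± 0.24 (adjusted p = 7.24e-05) in depleted cells. Depletion gave 0.94 ± 0.27 (adjusted p = 0.23) in untreated cells and 1.13 ± 0.29 (adjusted p = 0.0228) in Cisplatin-treated cells. The last call was lost in every fit that left out 1 of the 6 libraries, at sizes from 0.94 to 1.29 and adjusted p-values from 0.0554 to 0.619.

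SRSF7 holds 2 forms of its poison exon, of 449 nt (chr2:38976040-38976488, minus strand) and 276 nt (chr2:38976040-38976315). For the 449-nt form the inclusion levels were 7.18, 5.61 and 6.26 without and 13.4, 16.2 and 15.0 with Cisplatin in control cells, and 9.80, 11.1 and 9.46 without and 23.0, 24.3 and 24.3 with Cisplatin in depleted cells. No Cisplatin-treated library overlapped with an untreated one, and Cisplatin-treated depleted cells were highest. The log2 change with Cisplatin was 1.37 ± 0.28 (adjusted p = 0.000981) in control cells and 1.48 ± 0.23 (adjusted p = 7.22e-08) in depleted cells, and for the 276-nt form it was 1.28 ± 0.28 (adjusted p = 0.00553) and 1.42 ± 0.23 (adjusted p = 3.75e-07). In control cells the call of the 449-nt form was lost without library c of either condition (1.36 each, adjusted p = 0.0674 and 0.095). That of the 276-nt form was lost without library a or c of either condition (1.24 to 1.41, adjusted p = 0.0875 to 0.225). Depletion was not called for either form, with 0.73 ± 0.22 (adjusted p = 0.362) in untreated and 0.85 ± 0.29 (adjusted p = 0.198) in Cisplatin-treated cells for the 449-nt form. A coding exon of SRSF7 of 36 nt (chr2:38973286-38973321) was included at 82.7 ± 1.37% (SD, n = 3) in untreated control cells and 89.4 ± 1.78% in Cisplatin-treated depleted cells, and passed no test.

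The poison exon of TRA2A (chr7:23561740-23562051, minus strand, 312 nt) had inclusion levels of 8.38, 6.90 and 5.69 without and 16.4, 20.9 and 19.8 with Cisplatin in control cells, and 9.94, 8.06 and 7.13 without and 16.1, 20.2 and 19.1 with Cisplatin in depleted cells. Cisplatin-treated libraries were higher in both cell types, and control and depleted cells overlapped with Cisplatin. The log2 change was 1.65 ± 0.32 (adjusted p = 0.000519) in control cells and 1.31 ± 0.29 (adjusted p = 0.00119) in depleted cells. The former was lost without untreated control library c (1.51, adjusted p = 0.1) or Cisplatin-treated control library c (1.61, adjusted p = 0.0665), and the latter without untreated depleted library c (1.19, adjusted p = 0.0653). Its 301-nt form, which starts at the same base, gave 1.64 ± 0.32 (adjusted p = 0.000562) and 1.33 ± 0.29 (adjusted p = 0.000972). The poison exon of TRA2B (chr3:185649365-185649640, minus strand) had inclusion levels of 6.30, 6.41 and 6.05 without and 8.55, 9.55 and 12.1 with Cisplatin in control cells, and 7.92, 5.35 and 5.00 without and 11.3, 12.8 and 14.6 with Cisplatin in depleted cells. Levels were higher with Cisplatin in both cell types. The call was made in depleted cells (1.20 ± 0.26, adjusted p = 0.000679) and not in control cells (0.74 ± 0.31, adjusted p = 0.68), and the former was lost without untreated depleted library b (1.11, adjusted p = 0.0691) or c (1.07, adjusted p = 0.0688). No difference between the 2 effects of Cisplatin was called for either gene.

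The 104-nt exon of SRSF2 (chr17:74731854-74731957, minus strand) lies beyond the end of the coding sequence in all 5 annotated coding transcripts. Genes on the opposite strand overlap it, and the strand setting of the event counts is not given in the sources used here. Its inclusion levels were 8.35, 6.94 and 8.45 without and 17.8, 16.1 and 17.3 with Cisplatin in control cells, and 10.1, 11.0 and 9.71 without and 24.0, 22.4 and 21.3 with Cisplatin in depleted cells. Cisplatin-treated libraries were higher in both cell types, and depleted cells were above control cells in both conditions. The log2 change with Cisplatin was 1.26 ± 0.28 (adjusted p = 0.006) in control cells and 1.34 ± 0.23 (adjusted p = 2.93e-06) in depleted cells. The former was lost without library a or c of either condition (1.22 to 1.32, adjusted p = 0.117 to 0.219). Depletion was not called, with 0.42 ± 0.23 (adjusted p = 0.699) in untreated and 0.50 ± 0.28 (adjusted p = 0.709) in Cisplatin-treated cells.

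The poison exons of SRSF4 and SRSF11 rested on fewer reads. The SRSF4 exon (chr1:29486376-29486570, minus strand) had inclusion levels of 2.14, 4.10 and 2.25 without and 3.59, 8.42 and 5.09 with Cisplatin in control cells, and 3.39, 4.12 and 1.89 without and 11.5, 10.1 and 7.66 with Cisplatin in depleted cells. Untreated and treated libraries overlapped in control cells and were apart in depleted cells. The exon was called with Cisplatin in depleted cells (1.71 ± 0.43, adjusted p = 0.00607) and not in control cells (1.03 ± 0.48, adjusted p = 0.712). The former call was lost without untreated depleted library a or c or Cisplatin-treated depleted library a or b (1.47 to 1.76, adjusted p = 0.0643 to 0.172). The SRSF11 exon (chr1:70697542-70697658, plus strand) had inclusion levels of 8.73, 7.17 and 7.74 without and 12.2, 8.49 and 16.6 with Cisplatin in control cells, and 10.0, 12.8 and 9.18 without and 14.5, 15.0 and 16.0 with Cisplatin in depleted cells. Control cells overlapped between conditions, depleted cells did not, and no test was passed (Cisplatin in depleted cells 0.58 ± 0.31, adjusted p = 0.618). A second SRSF11 exon of 109 nt (chr1:70696778-70696886) rose with Cisplatin in depleted cells, by 6.86 points with a log2 change of 1.22.

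In SRSF1 and SRSF5 the exons that were described hold coding sequence and were nearly always included. The 203-nt exon of SRSF1 (chr17:56082759-56082961, minus strand) is the start of the last exon of the main transcript and holds 192 coding bases. Its skipping form joins the exon before it to a site further along that last exon. Its inclusion levels were 98.9, 98.6 and 99.3 without and 96.4, 96.1 and 96.3 with Cisplatin in control cells, and 98.8, 99.3 and 98.8 without and 93.1, 93.5 and 91.7 with Cisplatin in depleted cells. They were lower with Cisplatin, without overlap, and lowest in Cisplatin-treated depleted cells. The log2 change was −1.83 ± 0.46 (adjusted p = 0.0264) in control cells, a call that was lost whichever of the 6 libraries was left out (adjusted p from 0.0513 to 0.658), and −2.86 ± 0.41 (adjusted p = 2.07e-09) in depleted cells. The skipping form rested on 240 reads over the 12 libraries, and the 187-nt exon that was called with it is defined by the same splice. The 111-nt exon of SRSF5 (chr14:70237712-70237822, plus strand) was included at 100% in each untreated control library and at 98.7 ± 1.14% in Cisplatin-treated depleted cells, with 19 skipping reads in all. It passed no test, with −3.59 ± 1.16 (adjusted p = 0.147) upon depletion in Cisplatin-treated cells and −2.31 ± 0.96 (adjusted p = 0.332) with Cisplatin in depleted cells. Another event of the same exon, with other bounds of the exon after it, was called in both comparisons (adjusted p = 0.0332 and 0.016), at a mean inclusion level that fell by 0.844 percentage points in each. No library of Cisplatin-treated control or untreated depleted cells held a skipping read of that event, so the change of its odds is not given.

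The level of the gene and the inclusion of its poison exon combine in the amounts of the 2 forms. These are given as reads of each form per kb and per 1000000 read pairs counted on the strand of a gene. Reads were pooled over the 3 libraries of a condition, and values are relative to untreated control cells. For SRSF3, SRSF7 and TRA2B the skipping form, which encodes the protein, was lower with Cisplatin than without. In SRSF3 it was at 0.573 with Cisplatin, 0.84 with depletion and 0.447 with both, while the inclusion form was at 7.43, 2.21 and 3.85. In SRSF7 (449-nt form) the skipping form was at 0.631, 0.95 and 0.519 and the inclusion form at 1.63, 1.58 and 2.39. TRA2B differed in that its inclusion form stayed near its untreated level, at 0.919, 0.889 and 1.00, beside a skipping form at 0.543, 0.916 and 0.46. SRSF6 was the reverse: its skipping form was at 1.01, 1.07 and 1.08 and its inclusion form at 2.11, 2.04 and 4.86. In TRA2A the inclusion form was at 2.61, 0.983 and 2.04 and the skipping form at 0.825, 0.795 and 0.673. In SRSF2 the form without the 104-nt exon was at 0.399, 0.908 and 0.451 and the form with it at 0.952, 1.22 and 1.53. These amounts are group values and were not tested.

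Retained introns of the members were called in every comparison, mostly as increases except with Cisplatin in control cells. Of 9 introns tested, Cisplatin in control cells lowered 1 and raised none (0.493% of 3448 called, 0.203% higher and 0.29% lower), and depletion in untreated cells raised 3 and lowered none (17.4% of 3434, 17.1% higher and 0.349% lower). Of 10 tested, depletion in Cisplatin-treated cells raised 4 and lowered 1 (26.0% of 3541, 25.4% higher and 0.65% lower), and Cisplatin in depleted cells raised 3 and lowered 2 (15.7% of 3486, 13.3% higher and 2.35% lower). The 1215-nt intron of SRSF5 (chr14:70235969-70237183, plus strand), which contains an annotated alternative exon, was retained, in percent, at 9.80, 10.0 and 11.4 without and 12.6, 11.5 and 19.2 with Cisplatin in control cells, and 20.2, 21.3 and 20.6 without and 29.6, 29.1 and 30.6 with Cisplatin in depleted cells. Annotated exons cover 37.7% of this region, and their reads count as inclusion reads. Retention of the whole intron was therefore not separated from use of the alternative exon. Depleted cells were above control cells in both conditions, without overlap. Depletion gave a log2 change of 1.17 ± 0.19 (adjusted p = 1.17e-06) in untreated and 1.36 ± 0.28 (adjusted p = 0.000189) in Cisplatin-treated cells, and Cisplatin one of 0.70 ± 0.15 (adjusted p = 7.41e-05) in depleted cells and 0.51 ± 0.31 (adjusted p = 0.666) in control cells. The 875-nt intron of SRSF7 (chr2:38975796-38976670, minus strand) holds both poison exons and was retained, in percent, at 6.06, 4.45 and 5.02 without and 9.78, 10.0 and 11.4 with Cisplatin in control cells, and 7.66, 8.33 and 7.73 without and 18.1, 19.4 and 19.6 with Cisplatin in depleted cells. It was highest in Cisplatin-treated depleted cells, and all 4 groups were apart. Cisplatin gave 1.10 ± 0.30 (adjusted p = 0.0521) in control and 1.46 ± 0.15 (adjusted p = 1.62e-19) in depleted cells, and depletion 0.66 ± 0.19 (adjusted p = 0.00736) in untreated cells, a call lost without untreated depleted library b (0.62, adjusted p = 0.0553), and 1.02 ± 0.28 (adjusted p = 0.00397) in Cisplatin-treated cells. Its skipping reads are those of the poison exons, and reads inside those exons count for both, so the values are not independent.

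The 280-nt intron of TRA2A (chr7:23561460-23561739, minus strand), which follows the poison exon, was retained, in percent, at 72.4, 73.2 and 72.4 without and 63.7, 42.0 and 71.0 with Cisplatin in control cells, and 75.6, 76.8 and 81.8 without and 87.9, 80.4 and 89.8 with Cisplatin in depleted cells. Library b of the Cisplatin-treated control cells was far below the others. Depletion in Cisplatin-treated cells gave 2.06 ± 0.52 (adjusted p = 0.00175), and no other comparison was called. The 759-nt region of SRSF1 (chr17:56082403-56083161, minus strand) spans the last intron of the main transcript and the start of its last exon, so reads of that exon count as its inclusion reads. It was included, in percent, at 98.7, 98.2 and 99.1 without and 95.8, 95.1 and 95.8 with Cisplatin in control cells, and 98.6, 99.1 and 98.5 without and 91.3, 92.5 and 89.7 with Cisplatin in depleted cells. The levels were lower with Cisplatin, with log2 changes of −1.80 ± 0.40 (adjusted p = 0.00529) in control cells and −2.89 ± 0.30 (adjusted p = 4.04e-19) in depleted cells, and of −1.04 ± 0.33 (adjusted p = 0.0129) upon depletion in Cisplatin-treated cells. The call in control cells was lost without untreated control library a (−1.81, adjusted p = 0.0608) or c (−1.56, adjusted p = 0.238) or Cisplatin-treated control library a (−1.83, adjusted p = 0.071), and that of depletion without Cisplatin-treated control library a (−1.02, adjusted p = 0.0667) or Cisplatin-treated depleted library a (−1.05, adjusted p = 0.0629) or c (−0.92, adjusted p = 0.0878). Its skipping reads are the 240 reads of the 203-nt exon. The interaction of Cisplatin and depletion, by edgeR, was called for 0.032% of 3125 introns and for 0 of 9 of the members, of which SRSF1 (−1.10 ± 0.49, adjusted p = 0.617) and TRA2A (1.64 ± 0.78, adjusted p = 0.651) had an unadjusted p under 0.05. A 259-nt region at the start of the SRSF5 intron fell with Cisplatin in depleted cells (−1.75 ± 0.43, adjusted p = 0.000715), a call lost without Cisplatin-treated depleted library a (−1.14, adjusted p = 0.152).

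Intronic reads of the genes were counted in other files than the splicing events and give a second readout of unspliced RNA. They could be tested for 9 members, since SRSF1 had fewer reads counted over its whole span than over its exons. The ratio of intronic to exonic reads rose in 6 of 9 with Cisplatin in control cells (16.1% of 11354 genes higher), in 9 of 9 with Cisplatin in depleted cells (63.9%), in 5 of 9 upon depletion in untreated cells (28.1%) and in 8 of 9 upon depletion in Cisplatin-treated cells (81.9%), and fell in none. Over all genes, in the same order of comparisons, 17.2%, 64.5%, 28.2% and 82.1% were called in either direction and 1.14%, 0.652%, 0.15% and 0.176% were lower. The median log2 changes over the 9 were 0.87, 1.20, 0.87 and 1.02, against 0.28, 0.74, 0.47 and 0.97 over all genes tested. Among the 30 genes of the pathway list, 27 could be tested, and 6, 19, 8 and 25 rose in these comparisons while 1 fell, with Cisplatin in control cells.

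SRSF3 had 2.31 ± 0.202 (SD, n = 3) intronic per 100 exonic reads in untreated control cells, 12.2 ± 4.02 with Cisplatin, 5.81 ± 0.875 upon depletion and 15.0 ± 1.44 with both. The log2 change was 2.36 ± 0.20 (adjusted p = 1.72e-08) with Cisplatin in control cells, and depletion was called in untreated cells (1.33 ± 0.20, adjusted p = 0.00122) but not in Cisplatin-treated cells (0.34 ± 0.20, adjusted p = 0.119). TRA2B had 7.90 ± 1.23, 13.5 ± 5.15, 10.1 ± 1.47 and 33.0 ± 3.05 in the same order of conditions, and TRA2A 13.1 ± 0.595, 25.3 ± 6.86, 17.8 ± 1.57 and 54.3 ± 3.44. Both were highest with depletion and Cisplatin. In depleted cells Cisplatin gave log2 changes of 1.71 ± 0.22 (adjusted p = 1.44e-06) for TRA2B and 1.61 ± 0.19 (adjusted p = 4.36e-07) for TRA2A. SRSF7 went from 12.9 ± 2.24 to 23.5 ± 3.44, 23.4 ± 0.677 and 53.7 ± 4.79, and depletion in Cisplatin-treated cells gave 1.20 ± 0.17 (adjusted p = 8.22e-06). SRSF5 and SRSF6 rose upon depletion in untreated cells, with log2 changes of 0.97 ± 0.16 (adjusted p = 0.0021) and 1.04 ± 0.16 (adjusted p = 0.00128). The poison exons of SRSF3, SRSF4, SRSF6, SRSF7 and TRA2A lie outside the exons of the annotation behind these counts (0% of their bases). Reads of an included poison exon therefore count as intronic there. The TRA2B poison exon lies within annotated exons for 35.9% of its bases, so reads of its other part count as intronic too. In turn, reads of unspliced introns add to the inclusion reads of an exon, and the part of either in the other result was not tested.

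Some of these calls rested on single libraries. With Cisplatin in control cells, SRSF4 (0.81 ± 0.23, adjusted p = 0.0163) lost its call without untreated control replicate 1 (0.63, adjusted p = 0.1) or untreated control replicate 3 (0.70, adjusted p = 0.0837), and TRA2B (0.72 ± 0.22, adjusted p = 0.0264) without untreated control replicate 2 (0.59, adjusted p = 0.129), untreated control replicate 3 (0.76, adjusted p = 0.0525), Cisplatin-treated control replicate 1 (0.75, adjusted p = 0.0648) or Cisplatin-treated control replicate 3 (0.43, adjusted p = 0.0975). With Cisplatin in depleted cells, SRSF5 (0.41 ± 0.16, adjusted p = 0.0312) lost its call whichever of the 6 libraries of depleted cells was left out (adjusted p from 0.066 to 0.0877), and SRSF2 (1.15 ± 0.43, adjusted p = 0.0239) without replicate 1 or 3 of either condition (adjusted p from 0.07 to 0.09). SRSF2 had at most 0.158 intronic per 100 exonic reads in any library. Its call upon depletion in untreated cells (2.07 ± 0.60, adjusted p = 0.0184) was lost without untreated control replicate 2 (1.56, adjusted p = 0.0841) or untreated depleted replicate 2 (1.52, adjusted p = 0.14). SRSF11 was called upon depletion in Cisplatin-treated cells (0.59 ± 0.23, adjusted p = 0.0205), and lost the call without Cisplatin-treated control replicate 2 (0.24, adjusted p = 0.184) or Cisplatin-treated depleted replicate 3 (0.53, adjusted p = 0.0722).

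**Figure D4:**
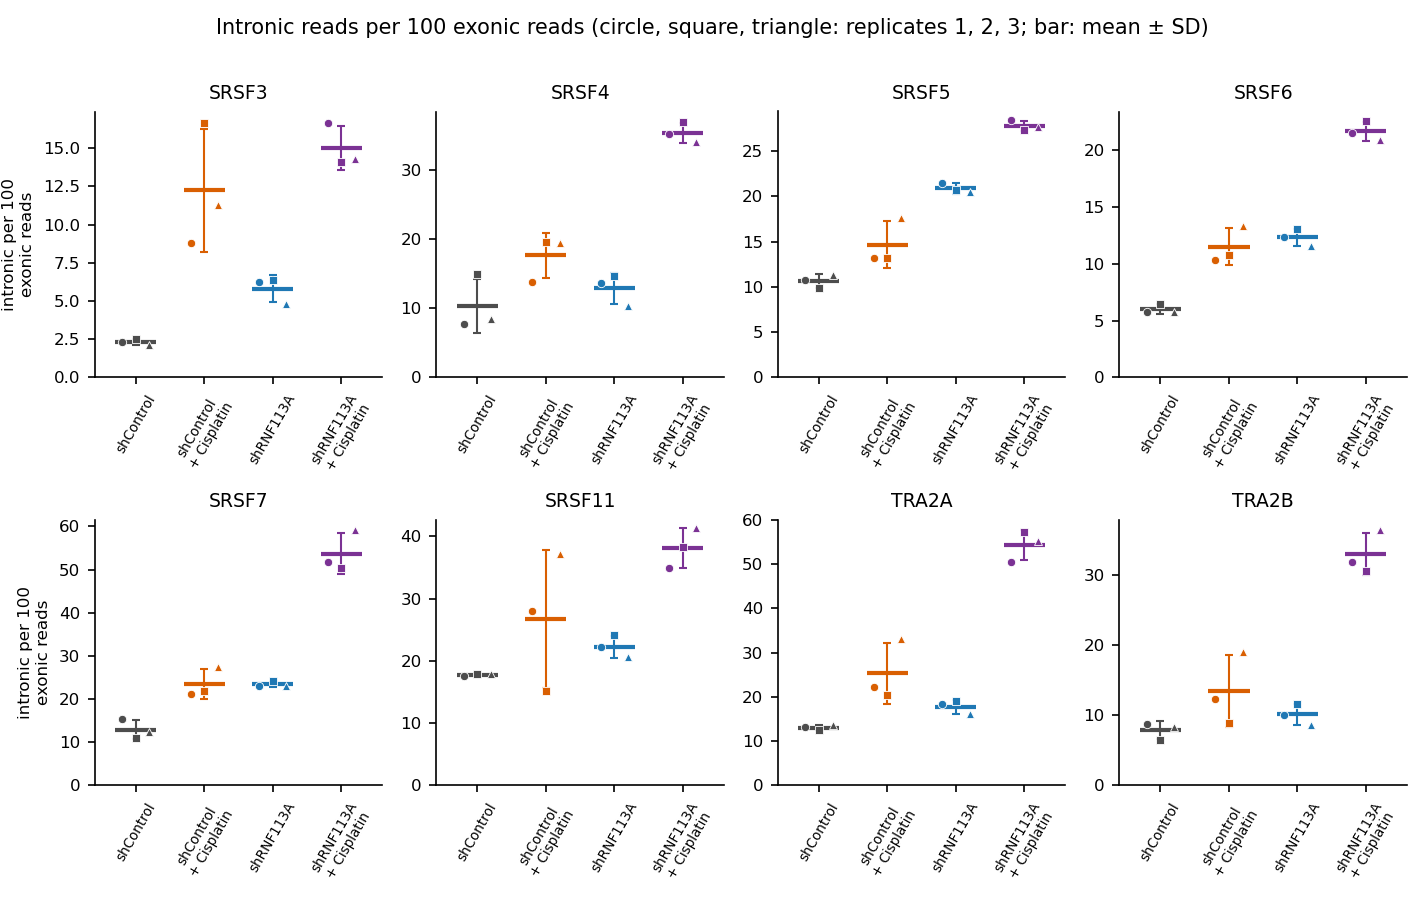
Intronic reads per 100 exonic reads in each library, by condition, for 8 members (SRSF1 and SRSF2 are not plotted). Points are libraries, and bars are means ± SD of 3 libraries. Means are highest in Cisplatin-treated depleted cells, at 53.7 for SRSF7 and 54.3 for TRA2A against 12.9 and 13.1 in untreated control cells. For SRSF3 and SRSF11 these libraries overlap with those of Cisplatin-treated control cells.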

How the data were processed

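The authors sequenced stranded TruSeq mRNA libraries of A549 cells as read pairs, filtered out those of rRNA, tRNA and mitochondria, and aligned the rest to hg19 with STAR 2.5.2b (per the labels and the study's methods). Counts of read pairs per gene were deposited by the authors as raw counts, and the counts on the strand of the gene were used. Intronic reads were the difference of 2 further raw counts per gene, of reads over the gene and over its exons, which the authors made with HTSeq on protein-coding genes of Gencode v19 and deposited. Inclusion and skipping reads of each event were deposited by the authors in tables of their rMATS analysis, with the length of each form. These tables also hold the authors' own p-values, FDR and inclusion level differences, which were not used. Of their 5 event categories skipped exons and retained introns were used, and 126 introns whose reads differ between the tables were left out of the interaction. A merged transcript annotation was not used.

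Tests used the quasi-likelihood test of edgeR 4.0.16 in R 4.3.3, with TMM scaling and filterByExpr for gene counts (15352 genes kept), at least 10 reads of an event in every library, and at least 10 exonic reads in every library. Events and intronic reads had a term for each library. All 12 libraries entered the gene count, intronic and interaction models, and the 6 of a comparison the event models. A call was an adjusted p under 0.05. Levels are exonic reads per kb of the union of annotated exons and per 1000000 exonic reads. The tests were checked on simulated counts with 1 fixed dispersion for all features. Spread that differs between features, and a replicate that stands apart, were not simulated. Alternatives included DESeq2 1.42.0, other scalings and filters, unstranded counts, a replicate block and the omission of each library. Sequences came from GRCh37 with the annotation Gencode v44lift37 through samtools 1.23.1, Python 3.11.15 and pandas 2.3.3, and figures from matplotlib 3.10.9.

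The members and the pathway list were chosen with earlier results of these data known. Text names all 10 members. For each it names the exon and intron with the most reads of the lesser form, summed over all 12 libraries, whatever the test result. Every exon or intron that passed a test with means at least 10 percentage points apart is also named. Of the pathway list up to 4 genes are named per comparison. SRSF8, the SRSF11 exon of 109 nt, the SRSF1 exon of 187 nt and the other event of the SRSF5 exon were named after their values were seen. Equally numbered libraries of control cells deviated together (correlations of 0.62, 0.72 and 0.42 over 8423 genes), so a block was tried. The pairing comes from these values alone, and replicate 3 correlated better with another number.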

Additional observations from a re-analysis of the deposited data

Results flagged for a closer look

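The following values were set apart because a test of the difference itself was passed. For SRSF2 the interaction was called at 0.52 (log2), with a smaller decrease with Cisplatin in depleted cells. That call was lost in most fits with 1 library left out, and without a filter on low counts. Over all genes tested, 4.25% had a called interaction of gene counts. For RSRC1 the interaction was −0.77 (adjusted p = 0.00979 by edgeR's quasi-likelihood test), with a stronger decrease in depleted cells. For SCAF8, which encodes a protein that binds RNA polymerase II, it was −0.56 (adjusted p = 0.0187 by the same test). The log2 fold change of SCAF8 with Cisplatin was 0.41 in control cells and −0.15 in depleted cells. How far the interactions of RSRC1 and SCAF8 depend on single libraries was not examined. For the 456-nt poison exon of SRSF3 the interaction of the odds of inclusion was −1.89, with the larger increase in control cells.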

How the results depend on the processing

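Of the single results that were called, recomputing them under the alternatives kept the call 1230 times, lost it 138 times and never reversed its direction. The alternatives share most of their libraries, and some leave out a library outside the comparison. These numbers are therefore not a measure of how robust the calls are. Among results not called, 1373 recomputations stayed so, 32 passed the threshold and 64 changed sign. Depth limits the exons of SRSF4, SRSF5 and SRSF1 most, whose lesser form had the fewest reads. Among the named introns the lesser form had the fewest reads in the 259-nt region of SRSF5 (113) and the TRA2A intron (124). No result that changed sign was called with all libraries. Under DESeq2 these were SRSF6 with Cisplatin in control cells (−0.0097), SRSF2 upon depletion in untreated cells (−0.0012), SRSF5 with Cisplatin in the additive model (−0.0087) and the interactions of SRSF1 (−0.010) and SRSF4 (−0.020). With library size as the scaling they were SRSF11 (0.053) and TRA2A (0.027) with Cisplatin in control and depleted cells, TRA2A in the additive model (0.078) and the SRSF4 interaction (−0.0037). With at least 10 counts per library SRSF6 was −0.0029, and without a filter the SRSF4 interaction was −0.0097. With unstranded counts SRSF2 upon depletion was −0.013 and the SRSF4 interaction −0.0079. Without both libraries of replicate 2 of the control cells, SRSF2 upon depletion in untreated cells was −0.066, SRSF4 upon depletion −0.14 (untreated), −0.17 (Cisplatin-treated) and −0.15 (additive), and the interactions of SRSF4 −0.034 and SRSF7 0.066. Leaving out each library in turn gave ranges across 0 for SRSF6 (−0.040 to 0.065) and SRSF11 (−0.14 to 0.025) with Cisplatin in control cells, SRSF2 (−0.066 to 0.054) and SRSF4 (−0.14 to 0.21) upon depletion in untreated cells, SRSF4 upon depletion in Cisplatin-treated cells (−0.22 to 0.17) and in the additive model (−0.064 to 0.13), SRSF5 with Cisplatin in the additive model (−0.011 to 0.060) and the interactions of SRSF1 (−0.070 to 0.092), SRSF4 (−0.27 to 0.21) and SRSF7 (−0.082 to 0.062). Among events they were the exons of SRSF1 (−0.22 to 0.28), SRSF4 (−0.020 to 0.55) and TRA2B (−0.29 to 0.067) and the 759-nt region of SRSF1 (−0.20 to 0.29) upon depletion in untreated cells, the TRA2A forms (−0.18 to 0.063 and −0.15 to 0.067) upon depletion with Cisplatin, the 259-nt region of SRSF5 (−0.97 to 0.24) with Cisplatin in control cells, and the interactions of the exons of SRSF5 (−2.30 to 0.26) and SRSF11 (−0.40 to 0.17). Counts of calls moved more. For gene counts, members called upon depletion in untreated cells were 0, and 1 with DESeq2 and 3 without replicate 2 of the control cells (6469 genes in all). Members with an interaction were 1, and 3 with DESeq2, 0 without a filter and 3 without replicate 2 (1390 and 2627 genes in all with DESeq2 and without replicate 2). Without replicate 2, 3663 genes had a changed intronic ratio with Cisplatin in control cells. Skipped exons called with DESeq2, at 10 points and at 20 points apart were, for members and in all, 1, 3 and 0 and 12, 76 and 34 (Cisplatin in control cells), 2, 6 and 1 and 214, 393 and 159 (Cisplatin in depleted cells), 0, 0 and 0 and 0, 20 and 8 (depletion in untreated cells), and 0, 1 and 0 and 84, 98 and 34 (depletion in Cisplatin-treated cells). Retained introns were, in the same way, 0, 0 and 0 and 0, 10 and 3 with Cisplatin in control cells. With Cisplatin in depleted cells 2 and 0 members were at 10 and 20 points, and 259, 128 and 39 in all. Upon depletion these were 1 and 0, and 196, 139 and 34 in all in untreated cells, and 2 and 1, and 482, 264 and 84 in all in Cisplatin-treated cells. Fits with 1 library left out called 0 to 2 members upon depletion in untreated cells (2682 to 4804 genes) and 0 to 2 for the interaction (171 to 1547), 1159 to 4654 and 386 to 5266 genes for intronic reads with Cisplatin in control cells and upon depletion in untreated cells, and, for skipped exons of members and in all, 1 to 7 and 34 to 108, 7 to 12 and 496 to 797, 0 to 1 and 2 to 48, and 0 to 1 and 150 to 274 in the order above, with 5 to 21 interactions. For retained introns they called 0 to 2 members and 0 to 50 in all with Cisplatin in control cells, 281 to 516 and 501 to 1327 upon depletion in untreated and Cisplatin-treated cells, and 0 to 29 interactions. In all these the cause was not tested, except that asking for a larger difference calls fewer features by construction. With a replicate block in the gene count model, 5 members were called with Cisplatin in control cells (8753 genes in all), as without it, and in control cells alone with the block 6 members (9110 genes), the addition being SRSF4. The block changed no other member's call. No paired analysis was possible for the splicing events because the tables do not name their libraries.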
